A study of Mus musculus with 147 samples.

Results

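Sertoli cells are the somatic supporting cells of the testis cord, in which they enclose and nurse the germ cells. The 10 genes described here, Sox9, Amh, Wt1, Gata4, Inha, Inhbb, Fshr, Dhh, Clu and Cldn11, were chosen by name as genes of Sertoli cell identity and as hormones, receptors, secreted proteins and junction proteins of these cells. They are 10 of the 31053 genes in the deposited table of unique molecular identifiers (UMIs), in which each UMI stands for 1 captured transcript. The series is a single-cell RNA-seq study of the mouse male germ line by STRT-seq, and somatic cells were sequenced beside the germ cells.

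Wild-type mice were offspring of C57BL/6 females and males with the Blimp1-mVenus and Stella-ECFP transgenes (BVSC). From E11.5 to E18.5 cells were sorted by fluorescence, and each cell name gives its gate as BVSC or Negative. The labels do not explain Negative further, while the paper's sorting scheme took cells without the reporter signals as somatic. The paper also states that from E14.5 cells with Stella-ECFP alone were collected, as the Blimp1-mVenus signal fell. In 32 cells of E11.5 replicate 1 the gate was BV, and these cells entered no comparison. Helq-null mice carried an 8-base deletion in exon 1 of both alleles, made in embryonic stem cells with the same reporters. Gonads of E13.5 to E16.5 were cut into a proximal, a central and a distal segment with respect to the mesonephros. A fetal biological replicate pooled embryos, and a replicate after birth was 1 mouse. After birth cells that looked like germ cells were picked, so the number of somatic cells was set by the picking. These cells were split by Ddx4, a germ cell RNA helicase gene, at 150 CPM (counts per 1000000 UMIs of a cell or sum).

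The wild-type data held 572 Negative and 1331 BVSC cells in 16 pools each, a pool being the cells of 1 time-point, genotype and replicate. From PND0 to PND14 there were 750 cells with Ddx4 below 150 CPM and 4038 with more, in 24 pools. Cells held 10122 to 997915 UMIs (median 274683), and summed Negative pools held 2457656 to 14846785 UMIs. The 120 libraries used a common set of 96 barcodes. Over 6 germ cell markers the Negative pools held 47.1 to 539 CPM and the BVSC pools 1334 to 3524 CPM. Over 8 Sertoli markers outside the 10 genes (Aard, Amhr2, Cst9, Defb19, Mro, Ptgds, Rhox8 and Tesc) Negative pools held 81.99 to 4811 CPM, and over 6 peritubular and interstitial markers 157.5 to 2436 CPM. In such a sum, fewer Sertoli cells and less RNA per Sertoli cell cannot be told apart.

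In the XY gonad SRY switches on Sox9 in the supporting cells, and SOX9 commits them to the Sertoli fate. WT1 and GATA4 are zinc-finger transcription factors that the gonadal ridge needs before that step. Fetal Sertoli cells secrete AMH, which makes the Müllerian ducts regress, and DHH, a hedgehog ligand for Leydig and peritubular cells. Inhibin, a dimer of an alpha and a beta subunit, and the FSH receptor link Sertoli cells to the pituitary, and claudin-11 is a part of the tight junctions of the blood-testis barrier that forms as the cells mature.

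In GENCODE vM21 (mm10) Sox9 lies at chr11:112782224-112787760 (+), Amh at chr10:80805243-80807648 (+), Wt1 at chr2:105126529-105173616 (+), Gata4 at chr14:63198922-63271692 (-) and Inha at chr1:75507077-75510366 (+). Inhbb lies at chr1:119415465-119422248 (-), Fshr at chr17:88984952-89200675 (-), Dhh at chr15:98891152-98898540 (-), Clu at chr14:65968483-65981547 (+) and Cldn11 at chr3:31149920-31164324 (+). Dhh shares 3389 bases with Rhebl1 on its own strand and 1825 bases with an antisense gene. The strand setting of the counting is not given in the sources used here, so the counts of Dhh are uncertain to that extent.

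RefSeq promoters (GRCm38.p6, 250 bases before to 50 after the start) were found for Inha, Inhbb, Fshr, Dhh and Cldn11. They were searched on both strands for GATA words (AGATAA or TGATAA or AGATAG or TGATAG), the NR5A1 half-site (AGGTCA) and SOX words (ACAATG or ACAAAG or AACAAT). Of the 5 promoters 1 held a GATA word, 1 held the half-site and 0 held a SOX word, against 29.8%, 16.3% and 33.2% of all 32851 promoters of this length. The 2 promoters with a match are shown because they belong to the alpha and the beta B subunit of 1 Sertoli hormone and hold different words. They lie at chr1:75507359-75507658 (+) and chr1:119422199-119422498 (-). Capitals mark AGGTCA, which begins 69 bases before the RefSeq start of Inha, and AGATAG read on the other strand, which begins 27 bases before that of Inhbb. The whole Inha window lies inside the GENCODE span of Inha given above. Its RefSeq start is thus downstream of the GENCODE start, and the window is not upstream of the latter.
Inha: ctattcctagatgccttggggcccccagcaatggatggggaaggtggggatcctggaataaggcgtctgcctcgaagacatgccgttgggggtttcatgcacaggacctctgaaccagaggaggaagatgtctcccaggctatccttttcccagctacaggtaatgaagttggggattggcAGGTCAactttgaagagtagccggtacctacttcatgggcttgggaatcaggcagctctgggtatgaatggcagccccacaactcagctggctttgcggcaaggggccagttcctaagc
Inhbb: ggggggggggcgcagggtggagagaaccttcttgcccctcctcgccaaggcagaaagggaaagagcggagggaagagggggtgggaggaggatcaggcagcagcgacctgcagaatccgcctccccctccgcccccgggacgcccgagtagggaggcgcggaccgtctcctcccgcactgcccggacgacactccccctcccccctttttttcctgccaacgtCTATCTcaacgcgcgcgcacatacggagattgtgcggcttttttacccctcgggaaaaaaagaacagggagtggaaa
NR5A1 is the nuclear receptor of steroid-making and supporting cells, and GATA4 binds GATA words. A match describes the letters of the window and was not tested as a site.

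Libraries differed in ways that bear on these genes. In the E17.5 replicate 1 BVSC pool 16 of 72 cells had a summed level of the 8 markers of 2000 CPM or more, against 22 among all 1331 BVSC cells. That pool was the highest BVSC pool for each of the 10 genes. The E14.5 replicate 2 Negative pool had 0 such cells of 48, and E18.5 replicate 1 had 1 of 24.

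The first comparison asked which sorted cells hold these transcripts. All 10 genes were higher in Negative than in BVSC cells at an adjusted p under 0.05 (edgeR quasi-likelihood test, 16 pools each), where 23.8% of the 21368 genes tested were higher. The median log2 difference of the 10 genes was 4.63, against -0.38 over all genes tested.
The identity factors were separated in every pool. Sox9 was at 33.1 to 319 CPM (median 177) in Negative and at 0.327 to 58.2 CPM (median 4.67) in BVSC pools, a log2 difference of 5.04 ± 0.43 (SE, edgeR adjusted p = 6.3e-11). Gata4 was at 113.9 to 339.6 CPM (median 184) against 1.09 to 59.2 CPM (median 4.20), a difference of 5.45 ± 0.34 (edgeR adjusted p = 1.6e-13). Gata4 was the 1 member whose Negative and BVSC values did not overlap at all, a description whose share among all genes was not counted. Wt1 was at 43.7 to 522 CPM (median 203.5) against 1.99 to 53.9 CPM (median 7.39), a difference of 4.76 ± 0.34 (edgeR adjusted p = 1.6e-12). For each of these 3 genes Negative was above BVSC in 16 of 16 pools.
The secreted products varied more between Negative pools. Amh was at 0 to 619.8 CPM against 0 to 134.6 CPM (median 2.02), with a difference of 5.49 ± 0.72 (edgeR adjusted p = 2e-07), and was higher in 14 of 16 pools. Dhh was at 0.126 to 245 CPM (median 95.4) against 0.0808 to 60.2 CPM (median 2.64), a difference of 5.06 ± 0.57 (edgeR adjusted p = 1.2e-08).
Inha was at 8.16 to 979 CPM (median 317) against 1.40 to 287 CPM, and Inhbb at 0.879 to 108.8 CPM (median 56.1) against 0 to 40.2 CPM. Their differences were 4.26 ± 0.54 and 4.34 ± 0.60. Fshr was the least abundant in Negative pools, at 0 to 43.3 CPM (median 3.15), and was higher there in 10 of 16 pools.
Clu and Cldn11 had the smallest differences, 3.04 ± 0.38 and 3.00 ± 0.48. Clu, a secreted glycoprotein, was also present in BVSC pools, at 3.59 to 366 CPM. Without E17.5 replicate 1 the 10 differences were 3.02 to 5.84 and all still passed.

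**Figure D1:**
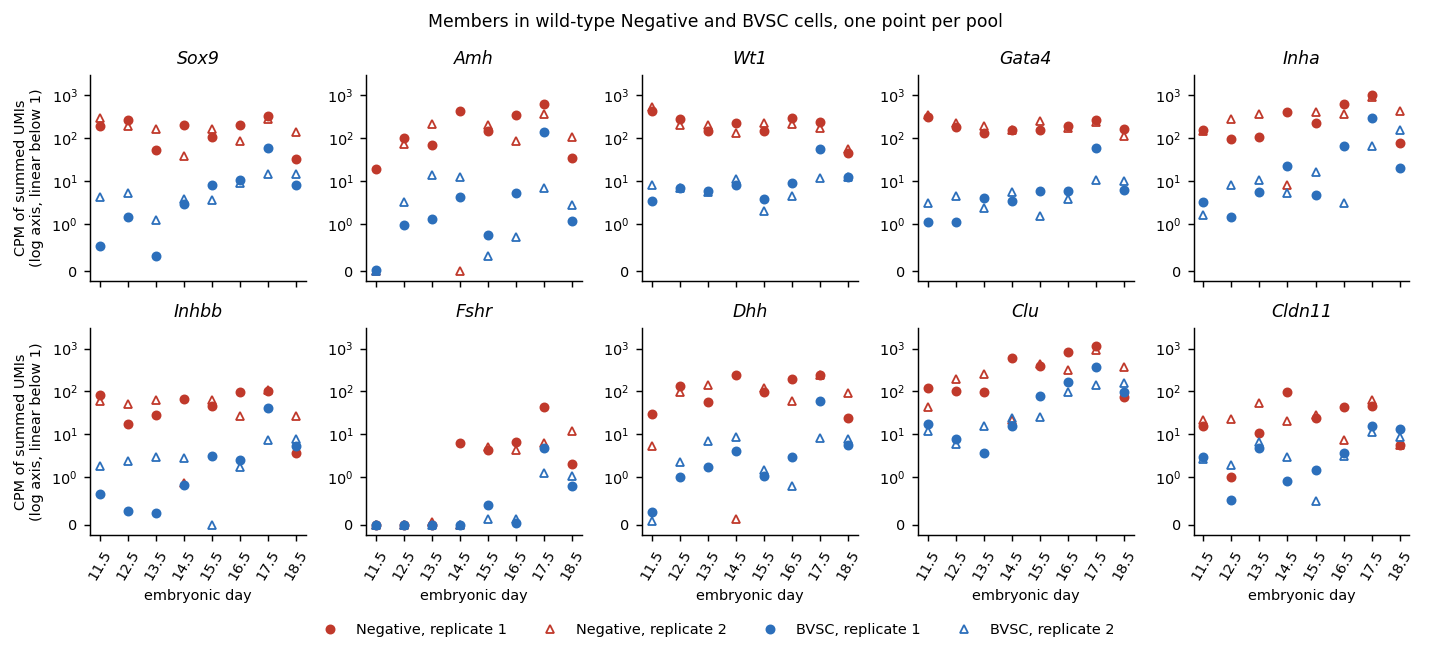
CPM of the 10 genes in summed wild-type Negative (red) and BVSC (blue) cells by embryonic day, with circles for replicate 1 and triangles for replicate 2. Each point is 1 pool, and the vertical axis is a log axis that is linear below 1 CPM. Gata4 is the gene whose red and blue points do not overlap, and the red Amh triangle at E14.5 lies at 0.

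Other genes of the same pathways were taken from 5 lists of 43 genes. Of the 42 tested, 28 were higher and 8 lower in Negative cells, and their median log2 difference was 2.697. Of the 9 early gonad genes tested 5 were higher and 3 lower, led by Lhx9 (5.55), Zfpm2 (5.25), which codes for a GATA4 partner, and Nr5a1 (5.21). Of the 8 Sertoli factors and signals 6 were higher and 1 lower, led by Ptgds (4.03), Sox8 (3.998) and Sox10 (2.95). All 9 hormone, receptor and paracrine genes were higher, led by the activin subunit gene Inhba (5.76), Cxcl12 (5.76) and the KIT ligand gene Kitl (5.13).
The 8 junction genes were mixed, with 2 higher and 3 lower. Gja1, which codes for connexin 43, differed by 5.10 and Cdh2 by 1.81, while Cldn3 differed by -3.91. Within E15.5 to E18.5 Cdh2 was at -0.11 and did not pass. Of the 8 genes in the secreted protein list 6 were higher and 1 lower, led by Cst9 (4.72), Defb19 (4.34) and Cst12 (3.95). That list also holds the homeobox genes Rhox5 and Rhox8. Markers of other somatic types moved too, with 5 of 5 Leydig and 6 of 6 peritubular and interstitial markers higher, and 6 of 6 germ cell markers were lower. Their part in the differences of the 10 genes was not tested.

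The Negative cells fell into a low and a high group by the summed level of the 8 Sertoli markers. Cells at 2000 CPM or more, a limit chosen after the data were seen, are called Sertoli-like here. They were 23.1% of 572 Negative cells, 22 of 1331 BVSC, 390 of 750 Ddx4-low and 54 of 4038 Ddx4-high cells, and 42, 4, 65 and 201 cells lay between 1000 and 3000 CPM. Among Negative pools the share ran from 0 at E11.5 replicate 2 and E14.5 replicate 2 to 19 of 23 cells (82.6%) at E17.5 replicate 1. The planned rule, 3 or more of the 8 markers at 20 CPM or more, took in 353 Negative cells, among them 47 of 47 at E14.5 replicate 1 and 48 of 48 at E16.5 replicate 1. In cells under 2000 CPM the median marker sum ran from 12.04 CPM at E18.5 replicate 1 to 1023 CPM at E16.5 replicate 1.

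**Figure D2:**
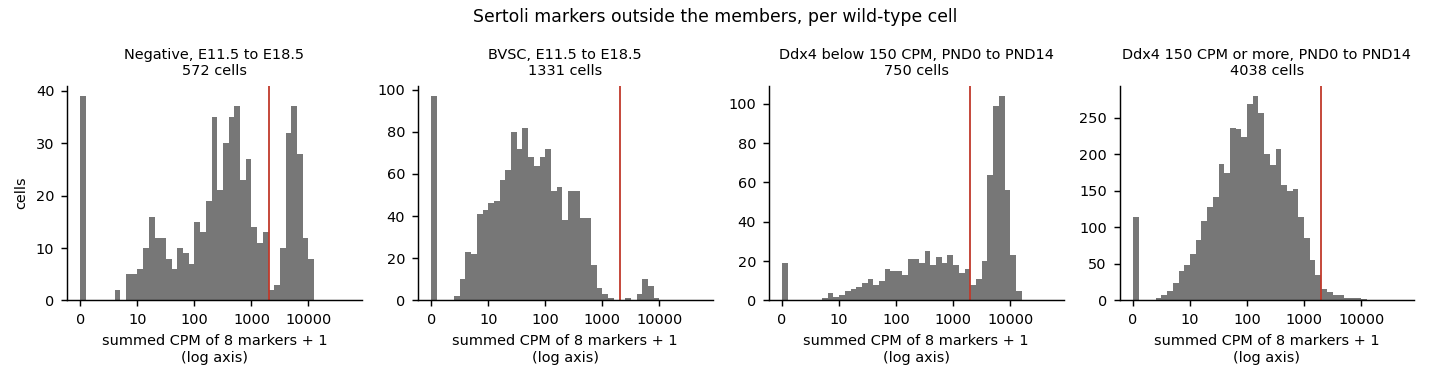
Number of wild-type cells by the summed CPM of 8 Sertoli markers outside the 10 genes, plotted as the sum + 1 on a log axis, in Negative and BVSC cells of E11.5 to E18.5 and in cells of PND0 to PND14 with Ddx4 below 150 CPM or at least 150 CPM. The red line marks 2000 CPM, which has 23.1% of 572 Negative cells and 390 of 750 Ddx4-low cells on its right.

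The E14.5 pools show the 10 genes with and without Sertoli-like cells. Replicate 2, with 0 of 48, had Amh at 0, Dhh at 0.126, Inhbb at 0.879 and Inha at 8.16 CPM. Replicate 1, with 20 of 47, had them at 423, 242.5, 66.6 and 394 CPM. Gata4 was at 151 and 149.5 CPM and Wt1 at 132.1 and 217 CPM in replicates 2 and 1, so these 2 factors were present in the pool without Sertoli-like cells. Sox9 was at 38.04 and 195 CPM and Clu at 21.1 and 604 CPM.
Single cells differed in the same genes. Of the Sertoli-like Negative cells of E13.5 to E18.5, 98.4% had 5 or more of the 10 genes at 100 CPM or more, against 1.16% of the 345 other Negative cells (median depths 186248 and 156752 UMIs). In those 345 cells Gata4 reached 100 CPM in 51.9%, Wt1 and Inha in 40.3% each and Clu in 39.4%. Amh did so in 0.870%, Dhh in 1.16% and Inhbb in 1.45% of them. Amh was at 100 CPM or more in 98.4% of the Sertoli-like cells, while Cldn11 did so in 38.1% and Fshr in 7.94%.
Among 1309 BVSC cells that were not Sertoli-like (median 304751 UMIs), Clu reached 100 CPM in 24.2%, Inha in 8.17% and Amh in 0. Of the 22 Sertoli-like BVSC cells, 100% held Amh at that level.

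The genes most like each member were ranked over the 572 Negative cells by Pearson's r of log2(CPM + 1), among genes outside the 10 with a mean of 10 CPM or more. These values describe cells that share libraries and depth. Amh was most like Ptgds (0.87), Kazald1 (0.86) and 8030411F24Rik (0.85), and Dhh most like Ptgds (0.85), Mt3 (0.83) and Mro (0.82). Inha was most like Defb19 (0.82), Cst9 (0.79) and Ptgds (0.77), and Clu most like Defb19 (0.81), Ptgds (0.79) and Kazald1 (0.78). Many of these partners are among the 8 Sertoli markers.
Inhbb was most like Adgrg1 (0.68), Shbg (0.67) and Spp1 (0.66), and Sox9 most like Spp1 (0.67), Tmem184a (0.65) and Mro (0.63). Wt1 had Amhr2 (0.64), F11r (0.57) and Col18a1 (0.55), Cldn11 had Chp2 (0.51), Col9a3 (0.50) and Mt3 (0.49), and Gata4 had Amhr2 (0.43), Cpe (0.42) and Kitl (0.41). Fshr had a mean under 10 CPM and was not ranked. Between members, Amh and Dhh had an r of 0.88.

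Sex determination falls around E11.5 and E12.5, and the Negative pools of these days show which of the genes were already on. Sox9 was at 192 and 298.5 CPM at E11.5 and at 256 and 189 CPM at E12.5. Wt1 was at 429 and 522 CPM, then at 272 and 200.1 CPM, and Gata4 at 312 and 340 CPM, then at 180 and 224 CPM. Both E11.5 pools of Wt1 and of Gata4 lay above both E12.5 pools, while the pools of Sox9 overlapped. This is a description, and the share of all genes with separated pools was not counted.
Amh was at 18.6 and 0 CPM at E11.5 and at 98.7 and 71.7 CPM at E12.5. Dhh was at 30.4 and 5.29 CPM, then at 135.2 and 96.3 CPM. Fshr was at 0 in all 4 pools. The E12.5 pools of Amh and Dhh lay above both E11.5 pools, again a description whose share among all genes was not counted.
None of the 10 genes passed the test between these days, where 0.261% of 16461 genes did (edgeR, 2 pools a day, 2 members at an unadjusted p under 0.05, and 0 members with DESeq2). The log2 differences were 3.24 ± 1.603 for Amh (edgeR adjusted p = 0.64), 2.77 ± 1.35 for Dhh (adjusted p = 0.63), -0.96 ± 0.32 for Wt1 (adjusted p = 0.39) and -0.63 ± 0.30 for Gata4 (adjusted p = 0.61). Of the 42 pathway genes tested, 2 were higher at E12.5. They were Inhba (adjusted p = 0.0011) and Hhip, a hedgehog-binding protein gene that hedgehog signals induce (adjusted p = 0.0012).

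Later fetal changes were tested as E17.5 and E18.5 against E12.5 and E13.5. In summed Negative pools Fshr was the 1 member past the test, where 1.13% of 16461 genes passed. It had 1 UMI among 27515081 in the 4 early pools and 219 among 11806242 in the 4 late pools, a ratio of 510 with an exact 95% interval of 90.7 to 20250 that covers counting error only (edgeR adjusted p = 0.037). Of the late UMIs 167 came from E17.5 replicate 1, and without that pool the ratio was 179.9 (30.9 to 7241) and the gene did not pass (edgeR adjusted p = 0.071). It was at 43.3 and 6.24 CPM at E17.5 and at 2.05 and 12.2 CPM at E18.5.
Between these days Fshr was at 6.26 CPM at E14.5 replicate 1, at 0 at E14.5 replicate 2 and at 4.24 to 6.54 CPM in the 4 pools of E15.5 and E16.5. Wt1 differed by -0.95 ± 0.23 (adjusted p = 0.054), Clu by 1.63 ± 0.66 (adjusted p = 0.24) and Inha by 1.31 ± 0.71 (adjusted p = 0.39), and none of them passed in this edgeR fit. Without E14.5 replicate 2, which enters the estimate of the spread, Clu was higher (1.62, adjusted p = 0.015) and Wt1 lower (-0.96, adjusted p = 0.020).
The number of Sertoli-like cells also differed within a day, 1 of 24 and 3 of 22 at E18.5, where Inha was at 77.5 and 428 CPM and Clu at 72.7 and 372 CPM. Of the 42 pathway genes tested 4 were higher and 2 lower. Among them Inhba (2.82 ± 0.41), the cathepsin gene Ctsl (1.20 ± 0.23) and Cst12 were higher, and Emx2 (-2.90 ± 0.63) and Cdh2 (-1.94 ± 0.46) were lower.
Markers of other cell types moved in the same pools. Of the germ cell markers Mael (4.27 ± 0.66) and Tex101 (4.15 ± 0.89) were higher and Dppa3 (-5.56 ± 0.60) lower, and the other 3 did not pass. The hemoglobin genes Hba-a1 and Hba-a2 of the 6 blood markers, Kdr of the 4 endothelial and Upk3b of the 3 coelomic markers tested were lower, while 0 of 5 Leydig and 0 of 6 peritubular and interstitial markers passed. Summed germ cell markers were at 117.3 to 539 CPM in the early and 164 to 366.5 CPM in the late pools, and blood markers at 45.7 to 1683 CPM and at most 85.4 CPM. Their part in the values of the 10 genes was not tested.

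In Sertoli-like cells, summed over 3 or more cells a pool, 3 of the 10 genes were higher and 1 lower in the later pools, where 4.61% of 14138 genes passed. Each early day had 1 pool, and so had E18.5. The pools of E12.5 and E18.5 held 3 cells each. The fit gave each day its own mean, so its errors rest on E15.5 to E17.5, the days with both replicates. Inha was at 631 CPM at E12.5 replicate 2 and 500.3 CPM at E13.5 replicate 2, and at 1120, 1318 and 1293 CPM in the 2 pools of E17.5 and in E18.5 replicate 2. The difference was 1.304 ± 0.25 (edgeR adjusted p = 0.0018). Clu was at 302 and 519 CPM, then at 1307, 1333 and 1186 CPM, a difference of 1.80 ± 0.26 (edgeR adjusted p = 4.9e-05). For both genes every late pool lay above both early pools, a description whose share among all genes was not counted.
Cldn11 went the other way, from 142.6 and 181 CPM to 45.1, 55.7 and 23.6 CPM, a difference of -2.08 ± 0.54 (edgeR adjusted p = 0.020). Fshr was at 0 and 0.253 CPM in the early and at 50.6, 9.28 and 54.4 CPM in the late pools (edgeR adjusted p = 0.0080). The early and late pools of both genes did not overlap, which is again a description.
With 5 or more cells a pool the early group was 1 pool, E13.5 replicate 2, against the 2 pools of E17.5. Its variation could not be measured and was taken to be that of other days in the fit of 8 pools. As with 3 or more cells a pool, these values have no replicate check within an early day. Clu was at 1.52 (edgeR adjusted p = 0.042), Inha was at 1.46 (adjusted p = 0.051), Cldn11 at -1.67 (adjusted p = 0.44) and Fshr had an adjusted p of 0.26.
The identity genes and AMH did not pass. Sox9 differed by -0.26 ± 0.27, Amh by 0.13 ± 0.25, Wt1 by -0.55 ± 0.28, Gata4 by -0.93 ± 0.32, Dhh by -0.44 ± 0.27 and Inhbb by -1.17 ± 0.39. Gata4 and Inhbb had the smallest adjusted p among them, 0.098 and 0.082 in edgeR. In the fetal pools of 3 or more Sertoli-like cells Sox9 ranged from 322 to 943 CPM and Amh from 453 to 981 CPM.

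In the wider class of the planned rule, with E12.5 replicate 1 and E13.5 replicate 2 against the 2 pools of E17.5, 4 of the 10 genes were higher and 0 lower, where 2.66% of 17713 genes passed. Each early day again had 1 pool, so the errors rest on other days. Inha (1.83 ± 0.28, adjusted p = 1.2e-05) and Clu (2.31 ± 0.37, adjusted p = 3e-05) were higher in edgeR, as were Fshr (adjusted p = 0.026) and Cldn11 (5.78 ± 1.56, adjusted p = 0.026). In this class the 8 Sertoli markers summed to 1582 and 2114 CPM in the early and to 4879 and 5499 CPM in the late pools. The part of this difference between the pools in the values of the 10 genes was not tested. Cldn11 thus had opposite directions in the 2 classes. With 2 or more of the 8 markers it was at -0.39, and with 10 or more cells a pool at 0.11, and neither passed.
Of 38 pathway genes tested in Sertoli-like cells 5 were higher and 3 lower. The secreted protein genes Ctsl (1.46 ± 0.24) and Cst12, the homeobox gene Rhox8 (1.21 ± 0.33) and the occludin gene Ocln were higher. The early gonad genes Emx2 (-4.62 ± 0.87) and Gadd45g (-3.24 ± 0.64) and the FGF receptor gene Fgfr2 were lower. Rhox8, and Defb19 among the 5, are markers that chose the cells, so their values are a description. In the wider class 9 of 43 were higher and 3 lower, with Emx2, Gadd45g and Fgf9 lower and Inhba, Ocln, Espn, Cst12 and Ctsl higher. The other 4 of the 9, Ptgds, Cst9, Defb19 and Rhox8, are markers that chose the cells and are a description. Of the Leydig, peritubular and interstitial, endothelial and blood markers 0 passed in the Sertoli-like cells, while in the wider class 2 of 6 peritubular and interstitial markers were higher and 1 of 5 Leydig and 3 of 6 blood markers lower. Of the 6 germ cell markers Mael and Tex101 were higher and Dppa3 lower in both classes. In the Sertoli-like cells Mael differed by 5.58 ± 0.79, Tex101 by 4.97 ± 1.31 and Dppa3 by -4.74 ± 1.01, and the 6 markers summed to 110.4 and 246.8 CPM in the early and to 278 to 346 CPM in the late pools. The part of these markers in the values of the 10 genes was not tested.

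**Figure D3:**
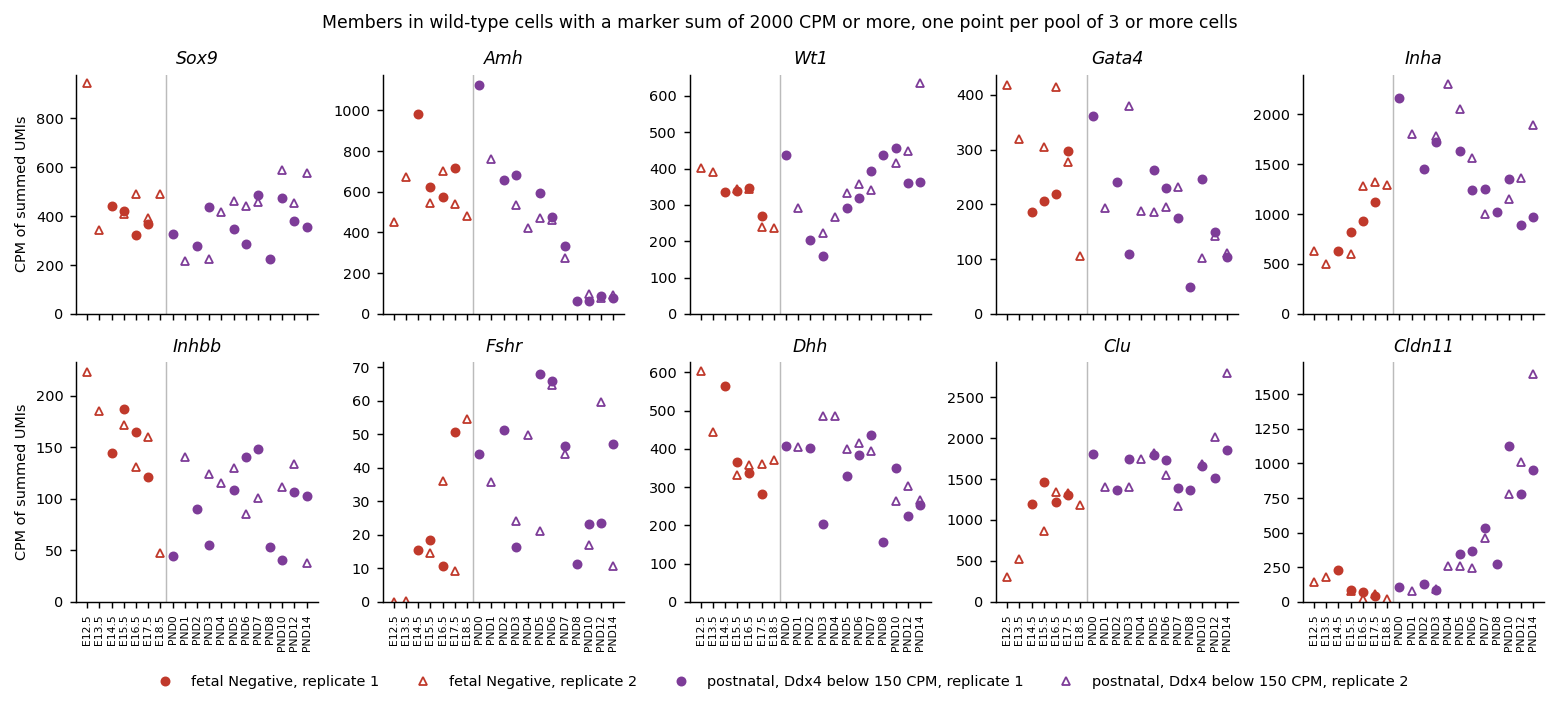
CPM of the 10 genes in summed Sertoli-like cells, in Negative cells of E12.5 to E18.5 (red) and in cells of PND0 to PND14 with Ddx4 below 150 CPM (purple), with circles for replicate 1 and triangles for replicate 2. Each point is 1 pool of 3 or more cells, and every axis starts at 0. From PND10 on Amh lies at 62.5 to 99.3 CPM and Cldn11 at 780 to 1649 CPM.

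Position along the gonad was compared as the distal against the proximal segment at E13.5 to E16.5, with 8 pools each. In replicate 1 Sertoli-like cells were 32 of 63 proximal, 15 of 62 central and 14 of 64 distal Negative cells, and in replicate 2 they were 10 of 61, 13 of 64 and 6 of 64. None of the 10 genes passed, where 0% of 13059 genes did (edgeR, 704 genes and 2 members at an unadjusted p under 0.05). DESeq2 called 0.0258% of the 31053 genes and 0 members.
The log2 differences, distal minus proximal, were -1.38 ± 0.55 for Sox9, -1.29 ± 0.94 for Amh, -1.37 ± 0.94 for Dhh, -0.86 ± 0.55 for Clu and -1.63 ± 0.54 for Cldn11 (edgeR adjusted p = 0.91 to 0.93). With replicate 1 alone Sox9 (-2.17), Amh (-2.11), Dhh (-2.31) and Clu (-1.34) were lower in the distal segment. With replicate 2 alone these were at -0.89, 0.42, 0.36 and 0.13, and none passed. Wt1 and Gata4 differed by -0.10 ± 0.21 and 0.24 ± 0.19.
Sertoli-like cells of both segments could be compared in 3 pools with 3 or more in each, E15.5 replicates 1 and 2 and E16.5 replicate 1, with 3, 3 and 9 distal cells. In them none of the 10 genes passed, where 0% of 10247 genes did (edgeR, 330 genes and 1 member at an unadjusted p under 0.05). Sox9 differed by -0.19 ± 0.26, Amh by 0.21 ± 0.23 and Dhh by 0.22 ± 0.30. Of the pathway genes 0 of 39 and 0 of 35 passed in the 2 fits.

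After birth all 10 genes were higher in cells with Ddx4 below 150 CPM than in the other cells of PND0 to PND14, where 21.9% of 23411 genes were higher (edgeR, 18 and 24 pools of 10 or more cells). Their median log2 difference was 4.16, against -0.60 over all genes tested. Each of the 10 was higher in 18 of 18 pools. The split itself used Ddx4, so germ cell genes are no result of it.
Amh differed most, at 13.6 to 471 CPM (median 180) against 0.341 to 21.3 CPM (median 4.83), a log2 difference of 5.003 ± 0.33 (edgeR adjusted p = 1.1e-15). Fshr was at 1.46 to 51.8 CPM against 0.0177 to 9.07 CPM, a difference of 4.83 ± 0.46 (edgeR adjusted p = 1.6e-11). Gata4 was at 29.9 to 215 CPM against 1.36 to 18.9 CPM (4.27 ± 0.24) and was again the 1 member without overlap, a share not counted among all genes.
Dhh differed by 4.34 ± 0.26, Cldn11 by 4.21 ± 0.25 and Sox9 by 4.10 ± 0.24. Inha, Wt1, Inhbb and Clu differed by 3.78 ± 0.26, 3.68 ± 0.22, 3.62 ± 0.30 and 3.48 ± 0.21. Clu was the most abundant, at 274 to 1837 CPM in the low and at 16.4 to 385 CPM in the high class.
Of the 42 pathway genes tested 27 were higher and 9 lower in the low class. Nr5a1 (4.62) and Lhx9 (3.93) were among the early gonad genes that passed, and Nr0b1 (4.93) and Ptgds (4.48) among the Sertoli factors. Hhip (4.61), Inhba (4.49) and Kitl (4.43) led the paracrine genes, Gja1 (4.29), Cldn5 (-2.89) and Cldn3 (-1.86) the junction genes, and Cst9 (3.83), Defb19 (3.74) and Cst12 (3.59) the secreted proteins. Leydig (5 of 5) and peritubular and interstitial markers (6 of 6) were higher in the low class as well, and their part was not tested.

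From birth to PND14 Amh fell and Cldn11 rose in Sertoli-like cells. Amh was at 1123 CPM at PND0 replicate 1, 762 CPM at PND1 replicate 2 and 656.5 CPM at PND2 replicate 1, and at 86.6 and 76.8 CPM at PND12 and 79.5 and 93.3 CPM at PND14. The log2 difference was -3.36 ± 0.26 (edgeR adjusted p = 1.9e-08), a 10.3-fold lower level. Cldn11 was at 105.2 CPM, 77.8 CPM and 131.8 CPM in the same early pools and at 780, 1012, 955 and 1649 CPM in the late ones, a difference of 3.36 ± 0.30 (edgeR adjusted p = 1.2e-07), 10.2-fold higher.
The early and late pools of both genes did not overlap, a description whose share among all genes was not counted. Amh and Cldn11 were the 2 members past the test, where 6.91% of 14476 genes passed. This contrast was added after the data were seen, and early pools of under 3 cells were left out. Each early day thus had 1 pool, from 1 mouse. The fit gave each day its own mean, so its errors rest on days from PND3 on that had both replicates. Of the markers of other cell types Tex101, 1 of 6 germ cell markers (2.45 ± 0.55), and Acta2, 1 of 6 peritubular and interstitial markers (2.14 ± 0.57), were higher in the late pools. Summed germ cell markers were at 168 to 336 CPM in the early and 279 to 695 CPM in the late pools, and peritubular and interstitial markers at 115.5 to 169 CPM and 25.1 to 582 CPM. Their part in the change of Amh and Cldn11 was not tested.
On the days between, Amh was at 681 and 536 CPM at PND3, 421 CPM at PND4 replicate 2, 592.5 and 470.2 CPM at PND5, 477 and 459 CPM at PND6, 335 and 276 CPM at PND7 and 62.5 and 99.3 CPM at PND10. The pool of PND4 thus lay below both pools of PND5 and of PND6. Cldn11 was at 82.3 and 95.4 CPM at PND3, 257 CPM at PND4 replicate 2, 344 and 261 CPM at PND5, 366 and 248 CPM at PND6, 531 and 464 CPM at PND7 and 1125 and 781 CPM at PND10. The 3 cells of PND8 replicate 1 were at 64.7 CPM for Amh and at 274 CPM for Cldn11, the latter below both pools of PND7.
The other 8 genes did not pass. Gata4 was at 361, 192.5 and 240.4 CPM, then at 149, 141.7, 104.2 and 111.3 CPM, a difference of -1.09 ± 0.37 (edgeR adjusted p = 0.077), and it did pass with DESeq2 (adjusted p = 0.047). Sox9 differed by 0.66 ± 0.29, Wt1 by 0.56 ± 0.27, Dhh by -0.68 ± 0.28, Inha by -0.52 ± 0.24, Clu by 0.38 ± 0.20, Inhbb by 0.11 ± 0.45 and Fshr by -0.34 ± 0.63.

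A shorter interval, PND5 to PND8 against PND0 to PND2, was tested over all Ddx4-low cells as planned. Here, and in the wider class and the Sertoli-like cells below, each early day again had 1 pool. Cldn11 was higher by 1.80 ± 0.34 (edgeR adjusted p = 0.042) and was the 1 member past the test, where 0.146% of 17752 genes passed. With the replicate number as a block it did not pass (adjusted p = 0.10). Amh was at -1.14 ± 0.24 (edgeR adjusted p = 0.092) and passed with DESeq2 (adjusted p = 0.0023).
In the wider marker class Cldn11 was higher by 1.80 ± 0.27 (edgeR adjusted p = 0.0063) and Amh lower, at -1.49 ± 0.23 (adjusted p = 0.0065), where 0.389% of 16470 genes passed. With 10 or more cells a pool Amh was at -0.54 and did not pass. In Sertoli-like cells they were at 1.71 ± 0.27 (adjusted p = 0.0024) and -1.64 ± 0.22 (adjusted p = 0.00056).
Among the pathway genes Ptgds, the prostaglandin D synthase gene, was lower and Aard higher in each of these 3 fits, and no other one passed. In Sertoli-like cells between PND0 to PND2 and PND12 to PND14, 7 of 36 pathway genes were higher and 3 lower. Ptgds (-6.08 ± 0.51) and Nr0b1 (2.62 ± 0.45) passed among the Sertoli factors. Gdnf (-3.74 ± 1.08), a growth factor gene for spermatogonial stem cells, and the AMH receptor gene Amhr2 (1.09 ± 0.28) passed among the paracrine genes, and Espn (1.51 ± 0.37) and Gja1 (-1.30 ± 0.33) among the junction genes. Rhox5 (5.88 ± 0.93), Aard (1.64 ± 0.30) and Gadd45g (3.84 ± 0.63) were higher. Ptgds, Amhr2 and Aard are among the 8 markers that chose the cells, so their values are a description.

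Single cells showed the same change of level. At 100 CPM or more, 97.2% of 72 Sertoli-like cells of PND0 to PND2 held Amh and 26.4% held Cldn11. For the 178 cells of PND3 to PND8 these shares were 94.4% and 76.4%, and for the 140 cells of PND10 to PND14 they were 34.3% and 97.9%. Median depths were 111712, 99401 and 154714 UMIs. Clu reached that level in 100% of the cells in each of the 3 periods and Sox9 in 76.4%, 89.3% and 91.4%. In the 3984 Ddx4-high cells that were not Sertoli-like (median 287698 UMIs) the shares were 0.0502% for Amh, 3.36% for Cldn11 and 27.2% for Clu.

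**Figure D4:**
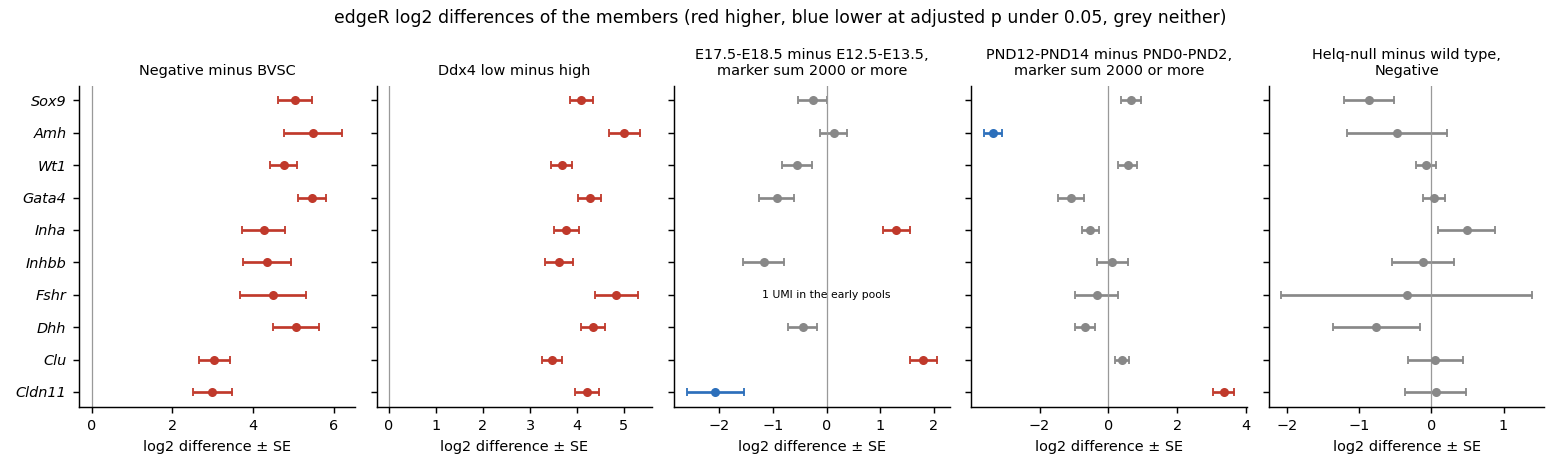
Log2 differences of the 10 genes with standard errors from edgeR in 5 comparisons, red where higher and blue where lower at an adjusted p under 0.05 and grey otherwise. All 10 genes are red in the 2 panels on the left, and Amh at -3.36 and Cldn11 at 3.36 stand apart after birth. Fshr is not drawn in the third panel, where the early pools held 1 UMI.

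The Helq-null mice allow the same genes to be compared between genotypes. Helq, which codes for a DNA repair helicase, was at 3.91 to 25.9 CPM in 9 Helq-null and at 4.92 to 29.1 CPM in 16 wild-type Negative pools. The tagged transcript ends need not cover the deleted bases, so these values do not check the genotype. Between the 9 Helq-null and 12 wild-type Negative pools of shared days none of the 10 genes passed, where 0.0881% of 15891 genes did (edgeR, 971 genes and 1 member at an unadjusted p under 0.05, and 0 members with DESeq2).
Sox9 differed by -0.86 ± 0.345 (edgeR adjusted p = 0.72), Dhh by -0.76 ± 0.60, Amh by -0.47 ± 0.69 and Inha by 0.49 ± 0.40. Wt1 and Gata4 differed by -0.08 ± 0.14 and 0.04 ± 0.15. The Helq-null pools held 0 to 10 Sertoli-like cells each.
In Sertoli-like cells none of the 10 genes passed between the genotypes (8 Helq-null and 6 wild-type pools), where 0.0167% of 11953 genes did (edgeR, 536 genes and 0 members at an unadjusted p under 0.05). Sox9 differed by -0.29 ± 0.22, Amh by 0.01 ± 0.24, Wt1 by 0.32 ± 0.19, Gata4 by 0.36 ± 0.27, Clu by 0.35 ± 0.19 and Dhh by -0.12 ± 0.22. Of the pathway genes 0 of 41 passed in all Negative cells and 0 of 36 in Sertoli-like cells.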

How the data were processed

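Male mouse germ line cells and somatic cells beside them were profiled by STRT-seq. The deposited UMI counts per gene and cell were made by the authors with UMI-tools, STAR and featureCounts of Subread on mm10, per the submitters' processing notes. Time-point, genotype, gate, segment and replicate came from the deposited table of cells, as the 147 labels give only the library. Cells with more than 2000 genes and 10000 to 1000000 UMIs were kept (10381 cells, 283 dropped). Doublets were not called. UMIs were summed per pool and class over 10 or more cells (5 or more for segments and marker classes, 3 or more for Sertoli-like cells), and whole tables were tested with edgeR 4.0.16 in R 4.3.3 (TMM, filterByExpr, quasi-likelihood test, Benjamini-Hochberg, threshold 0.05), with DESeq2 1.42.0 as an alternative. Scripts were tested on simulated data. Members, lists and tests were chosen with earlier results of these data known. Named were all 10 genes and, per list and comparison, the 3 genes past the threshold with the largest difference. Some of these genes are not reported here. Fetal replicates are pools of embryos and postnatal ones single mice. The same pool gave both classes of the gate, the segments and the Ddx4 split, where deviations correlated with a median r of 0.10, 0.27 and 0.25.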

Additional observations from a re-analysis of the deposited data

Results flagged for a closer look

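Among groups of 4 to 10 pools, 50 were examined for a single pool far from the others, and 5 had one. The limit used gives about 1 in 20 by chance in independent groups. These groups shared their pools across genes, so that rate cannot be set against the 5. In Negative cells of E12.5 and E13.5, Fshr was at 0.0674 CPM in E13.5 replicate 2 and at 0 in the other 3 pools, a matter of 1 UMI. In Ddx4-low cells of PND5 to PND8, PND8 replicate 1 had Inha at 144.6 CPM and Clu at 280 CPM, each the lowest of its group. In Sertoli-like cells of those days the same pool, with 3 cells, had the lowest Gata4 (49.5 CPM) and Dhh (156 CPM).

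Adult cells entered no comparison. The 31 Ddx4-low cells of adult replicate 1, of which 29 were Sertoli-like, held Clu at 1347 CPM, Inha at 421 CPM, Cldn11 at 181.5 CPM, Wt1 at 92.4 CPM, Gata4 at 79.3 CPM, Sox9 at 77.1 CPM, Dhh at 52.7 CPM, Inhbb at 48.2 CPM, Fshr at 9.36 CPM and Amh at 4.05 CPM. Leydig markers summed to 5636 CPM in the same pool, above the 4817 CPM of the 8 Sertoli markers. The name Sertoli-like rests here on that marker sum alone, and 29 of 346 Ddx4-high cells of the same replicate also reached its limit. Adult replicate 2 had 4 Ddx4-low cells and 0 Sertoli-like ones among them, so the Ddx4-low levels have no replicate. Among BVSC cells, which are sorted germ cells, E17.5 replicate 1 held 16 Sertoli-like cells.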

How the results depend on the processing

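Of 1060 values of the 10 genes under alternatives, 12 lost their call, 34 gained a call and 4 turned. The other 1010 kept their call or had no test. Untested were the time contrasts with a replicate left out, which had no residual degrees of freedom. Such values do not show that a call holds. Genes that passed in neither fit were not counted as turned, and 83 of their values changed sign. In the gate and the Ddx4 split each of the 10 genes kept its call under every alternative that tested it (Fshr was not tested within E11.5 to E14.5). RLE size factors moved the median of all genes by -0.13 in the gate. Causes were not tested. Gene totals here are percentages of the 31053 genes in the table, a fixed denominator, so they are below the shares of genes tested.

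With no filter on low counts 1.17% of genes passed for E12.5 against E11.5 (main 0.138%, with 2 members higher), 2.53% for the late fetal contrast (main 0.599%, 4 members higher and 1 lower), 0.325% for the segments (main 0%, 4 members lower), 0.911% for PND5 to PND8 (main 0.0837%, 1 member lower), 1.03% for the same days in marker-positive cells (main 0.206%, 2 members lower) and 0.473% for Helq (main 0.0451%, 1 member higher and 2 lower). After PND12 2 members were lower without that filter. DESeq2 called 0.892% for E12.5, 2.91% for the late fetal contrast (1 member lower), 0.0258% for the segments, 0.528% for PND5 to PND8 (1 member lower), 1.02% in marker-positive cells of those days, 0.303% for Helq and 5.37% for PND12 and PND14 (main 3.22%, 2 members lower).

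In late fetal marker-positive cells (main 1.52%, 4 members higher) 10 or more cells a pool left 0.692% and 2 members higher. Sertoli-like cells had 1 member lower, and with 5 or more of them a pool, which leaves 1 early pool, 0.142% and 1 member higher. Cldn11 turned to -0.39 with 2 or more markers, to -2.08 in Sertoli-like cells and to -1.67 with 5 or more of these, where Inhba was at -0.013. Cdh2 turned to -0.11 in the gate within E15.5 to E18.5.

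In Ddx4-low cells of PND5 to PND8, 20 or more cells a pool gave 0.432% and 1 member lower, and a Ddx4 limit of 300 CPM gave 13.4%. In marker-positive cells 10 or more cells a pool gave 0.544%, 2 members higher and 0 lower, a Ddx4 limit of 100 CPM 0.132%, one of 300 CPM 5.11%, 4 members higher and 0 lower with Clu turned to 0.65, and 4 or more markers 0 members lower. The split had 28.98% at 300 CPM (main 47.7%). For Helq, Sertoli-like cells had 0.00644% past the threshold. After PND12 2 members were lower at a Ddx4 limit of 100 CPM and at marker sums of 1000 or 3000 CPM, and 3 were higher at 300 CPM of Ddx4.

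The replicate block, where the pairing is real for gate, segments and split, changed no member's call there and gave 0.00966% for the segments. For PND5 to PND8, where samples share only a number, it gave 0.0322% and 0 members higher. With 1 replicate left out the gate had 23.3% to 23.4% (main 41.5%), the segments 0 to 0.348% with 0 to 4 members lower, the split 30.5% to 33.3% and Helq 0.00966% to 0.0419%. Time contrasts then had no residual degrees of freedom and no test. Without E17.5 replicate 1 the gate had 41.96%, E12.5 against E11.5 had 0.380%, and the late fetal contrast 0.779% and 0 members higher. That contrast had 1.66% without E18.5 replicate 1, and 1.37%, 2 members higher and 1 lower without E14.5 replicate 2. Pools of few cells limit the precision of single genes.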
